A study of Mus musculus and Sus scrofa with 30 samples.

Results

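The genes described here are 9 that act in adipokine signalling: the secreted factors Adipoq (adiponectin), Lep (leptin), Retn (resistin), Nampt (also called visfatin), Apln (apelin) and Rarres2 (chemerin), the adiponectin receptors Adipor1 and Adipor2, and Cdh13 (T-cadherin), which also binds adiponectin. They were taken by symbol, ignoring case, from 2 tables of normalized read counts, 1 with 24843 mouse genes and 1 with 34307 pig genes, and each symbol matched 1 row in each table. The mouse table covered 3T3-L1 cells, a line of mouse embryonic fibroblasts that can become fat cells. The pig table covered DFAT cells, which are dedifferentiated fat cells from pig subcutaneous fat that have returned to a fibroblast-like state. Each table held 15 libraries in 5 groups of 3, taken on day 5 of fat cell induction in the presence of DMSO (vehicle), dicoumarol, magnolol, dicoumarol together with magnolol (the combination), or rosiglitazone. Dicoumarol, a vitamin K antagonist, also blocks the enzyme NQO1, magnolol is a lignan from magnolia bark, and rosiglitazone is a thiazolidinedione that activates the nuclear receptor PPARG. All groups of a system shared its induction mix, vehicle included: insulin at 0.75 µg/mL, dexamethasone at 75 nM and the phosphodiesterase inhibitor IBMX at 37.5 µM in 10% serum for 3T3-L1, and dexamethasone at 0.5 µM, IBMX at 12.5 µM, biotin at 20 µM and pantothenate at 10 µM in 2% serum for DFAT. How much of each compound was added is not stated in the labels. The labels do not say whether the 3 libraries of a group came from separate cultures, so the p-values measure the spread between these libraries, which may be technical.

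Fat tissue secretes signalling proteins called adipokines. Adiponectin is made almost only by fat cells, is a standard marker of their maturation, and acts through ADIPOR1 and ADIPOR2, which lead to AMPK and PPARA activity, while T-cadherin holds its large multimers at the cell surface. Leptin reports fat stores to the brain and is low in cultured fat cells compared with fat tissue. Resistin is a fat cell product in mice, whereas in humans it comes mainly from macrophages. NAMPT makes a precursor of NAD from nicotinamide and is also found outside cells, apelin is a peptide ligand of the receptor APLNR, and chemerin attracts immune cells and promotes fat cell formation through CMKLR1.

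From the step between low values, the 3T3-L1 libraries held an estimated 22.8 to 30.7 M reads each and the DFAT libraries 44.8 to 70.5 M. A count of 0 allows a level of up to 2.57 to 3.70 normalized counts in a 3T3-L1 library and 2.54 to 3.84 in a DFAT library, taking 3 reads as the limit. These limits cover counting error only. All 10 markers of mature fat cells (Plin1, Fabp4, Cidec, Cd36, Lpl, Pparg, Cebpa, Slc2a4, Lipe and Pnpla2) were measured in both systems. Their summed level in 3T3-L1 ranged over 46767 to 64998 normalized counts in the vehicle libraries and 332898 to 571752 with rosiglitazone, and in DFAT over 24573 to 26349 and 83444 to 90430.0. Lpl was the largest part of these sums. Its means with vehicle and rosiglitazone were 44013 and 194730.0 in 3T3-L1 and 15637 and 40881 in DFAT. In bulk RNA, fewer cells of a type and less RNA per cell cannot be told apart. Endothelial markers were low in 3T3-L1, where none of the 5 found reached a mean of 10 normalized counts, and in DFAT 1 of 6 did (PECAM1, mean 184) while KDR was at 0 in all libraries. Of 6 macrophage markers, 4 matched a row in 3T3-L1 and 5 in DFAT. In 3T3-L1 Cd14 (mean 155), Cd68 (32.9) and Csf1r (14.6) were tested, and Cd14 fell with rosiglitazone (log2 fold change −1.32, adjusted p = 3.08e-06). The summed level of the list there was 234 to 269 with vehicle and 123 to 171 with rosiglitazone, and its part in the results was not tested. In DFAT CD14 (mean 807) and CD68 (71.4) were tested and neither was called against vehicle by limma, while PTPRC did not exceed 0.981 normalized counts in any library.

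The largest rises among the called members were those of adiponectin in both systems, and the combination and rosiglitazone raised Adipor2 in both. Members with a mean of at least 10 normalized counts over the 15 libraries were tested with limma, which left 8 of 9 in 3T3-L1 (not Lep) and 7 of 9 in DFAT (not RETN or RARRES2). A gene was called when its p, adjusted over all 15723 mouse or 14819 pig genes tested, was under 0.05. In 3T3-L1 no member was called with dicoumarol (0% of all genes were), 3 with magnolol (1.23% of all genes), 4 with the combination (5.22%) and 5 with rosiglitazone (40.1%). All were called higher except Cdh13, which was lower with rosiglitazone. The limma test found no gene called with dicoumarol in 3T3-L1, although 393 genes, 3 members among them, had an unadjusted p under 0.05, and limma-voom on estimated reads called 0. In DFAT 1 member was called with dicoumarol (1.94% of all genes), 2 with magnolol (4.22%), 4 when both were given (10.2%) and 3 with rosiglitazone (10.8%), all higher. The 4 include LEP, which passed the filter only through its treated groups, and are 3 without it. The median log2 fold change of the members tested was 0.23, 0.42, 0.56 and 0.66 in 3T3-L1 and 0.14, 0.14, 0.36 and 0.30 in DFAT for the 4 treatments in that order, LEP included, where the median over all genes lay within 0.011 of 0. In 3T3-L1 the replicate numbers paired the libraries, and with the replicate number as a block 3, 6 and 7 members were called with dicoumarol, magnolol and the combination, beside 79, 780 and 2124 of the 15723 genes.

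Adipoq in 3T3-L1 (ENSMUSG00000022878, chr16:22965286-22976778, plus strand, as the deposited table lists it, the build of whose coordinates is not settled) had levels of 794, 187 and 379 normalized counts in vehicle replicates 1, 2 and 3, and the values that follow keep this order. With dicoumarol the libraries stood at 1994, 528 and 1125, and with magnolol at 3838, 1912 and 3085. With the combination they reached 4965, 1982 and 4264, and with rosiglitazone 20741, 7971 and 12776. Replicate 2 was the lowest and replicate 1 the highest of each of the 5 groups. The magnolol, combination and rosiglitazone libraries all lay above every vehicle library, while the lowest dicoumarol library lay below the highest vehicle library.

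Against vehicle the Adipoq transcript rose 7.37-fold with magnolol (log2 fold change 2.88 ± 0.53 (SE), adjusted p = 0.0137), 9.05-fold with the combination (log2 fold change 3.18 ± 0.53 (SE), adjusted p = 0.00229) and 33.4-fold with rosiglitazone (log2 fold change 5.06 ± 0.53 (SE), adjusted p = 3.13e-06). Among 15723 genes these rises ranked 7, 12 and 6 from the top. With dicoumarol its log2 fold change was 1.46 ± 0.53 (SE), which did not pass the test (adjusted p = 0.9998) unless the replicate number was a block (adjusted p = 0.000229). The magnolol call was lost without vehicle replicate 2 or 3 or magnolol replicate 1 or 3 (adjusted p 0.0552 to 0.0888) and with no variance trend (0.0593), and with the block its adjusted p was 1.91e-08. Magnolol and the combination differed by 0.30 (95% interval −0.82 to 1.41), which did not pass the test. Rosiglitazone gave a higher level than the combination (log2 fold change 1.88 ± 0.53 (SE), adjusted p = 0.0229), a call lost without combination replicate 2 (adjusted p = 0.0943), rosiglitazone replicate 1 (0.117) or rosiglitazone replicate 3 (0.0522), and with no variance trend (0.0510). The share of normalized counts from mitochondrial genes moved with rosiglitazone in 3T3-L1: it was 14.3%, 7.66% and 11.6% in replicates 1, 2 and 3, 6.35%, 5.22% and 7.00% with vehicle, and 5.94% to 7.72% in the other groups, and its part in these results was not tested.

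**Figure D1:**
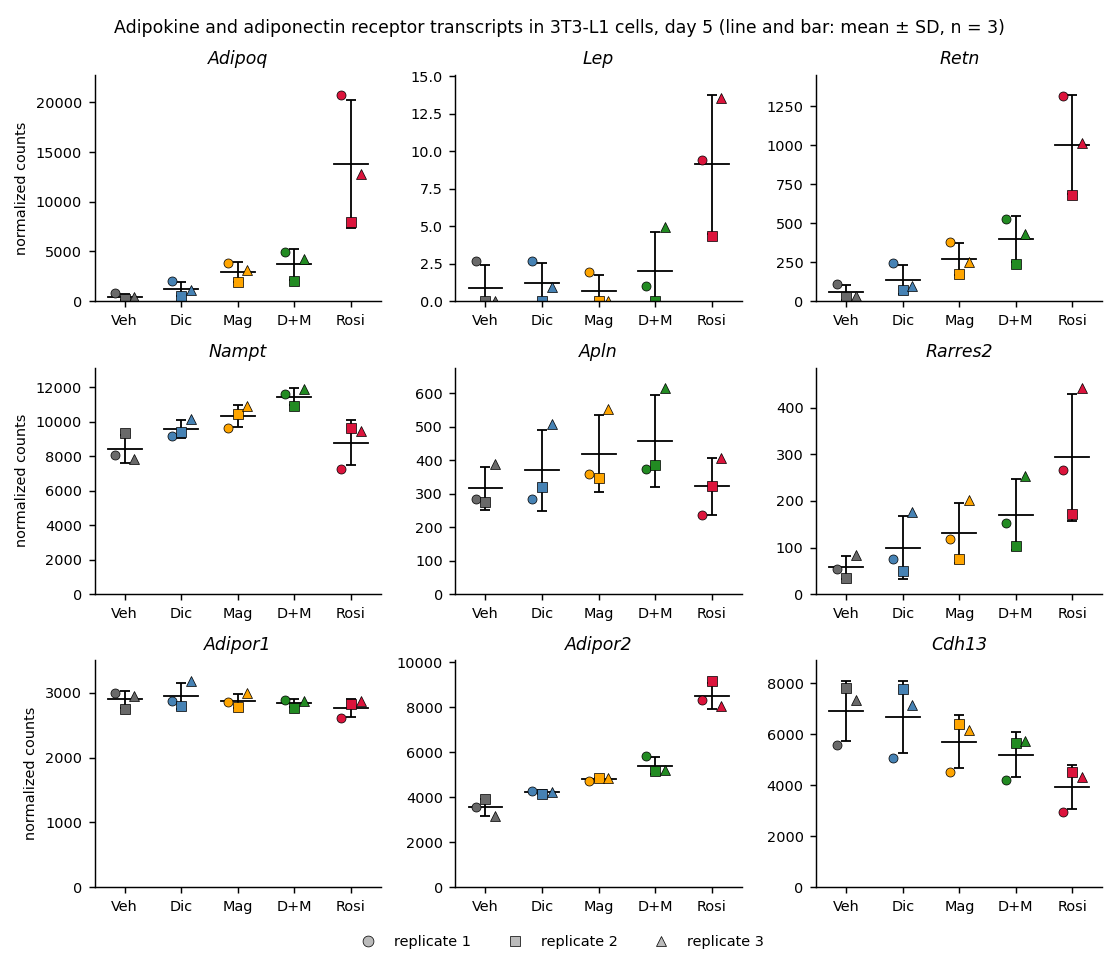
Normalized counts of the 9 members in the 15 libraries of 3T3-L1 (linear axes from 0), by treatment: vehicle (Veh), dicoumarol (Dic), magnolol (Mag), the combination (D+M) and rosiglitazone (Rosi). Points are single libraries, shaped by replicate number, and lines with bars give the mean ± SD (n = 3). Adipoq, Retn, Rarres2 and Adipor2 are highest with rosiglitazone, and Cdh13 is lowest there.

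ADIPOQ in DFAT (ENSSSCG00000039103, chr13:124633685-124646646, plus strand) started from a low level of 23.7, 42.0 and 19.3 normalized counts with vehicle. Dicoumarol libraries stood at 237, 307 and 335, and magnolol libraries at 1176, 1521 and 1868. The combination gave 2091, 1997 and 2463 and rosiglitazone 3535, 3688 and 4717. The 5 groups did not overlap at any step of this order.

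In DFAT the ADIPOQ transcript rose 10.5-fold with dicoumarol (log2 fold change 3.39 ± 0.22 (SE), adjusted p = 5.68e-08), 53.7-fold with magnolol (log2 fold change 5.75 ± 0.22 (SE), adjusted p = 1.30e-11), 78.1-fold with the combination (log2 fold change 6.29 ± 0.22 (SE), adjusted p = 2.39e-12) and 142-fold with rosiglitazone (log2 fold change 7.15 ± 0.22 (SE), adjusted p = 2.84e-13). It ranked 1, 1, 1 and 2 among 14819 genes by the size of its rise. Magnolol gave more ADIPOQ than dicoumarol (log2 fold change 2.36 ± 0.22 (SE), adjusted p = 1.09e-05). The step from magnolol to the combination was 0.54 (95% interval 0.075 to 1.01) and did not pass the test (adjusted p = 0.571), although the groups did not overlap. Rosiglitazone exceeded the combination (log2 fold change 0.86 ± 0.22 (SE), adjusted p = 0.0119), a call lost without rosiglitazone replicate 3 (adjusted p = 0.0570) and with no filter on low values (adjusted p = 0.0503).

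**Figure D2:**
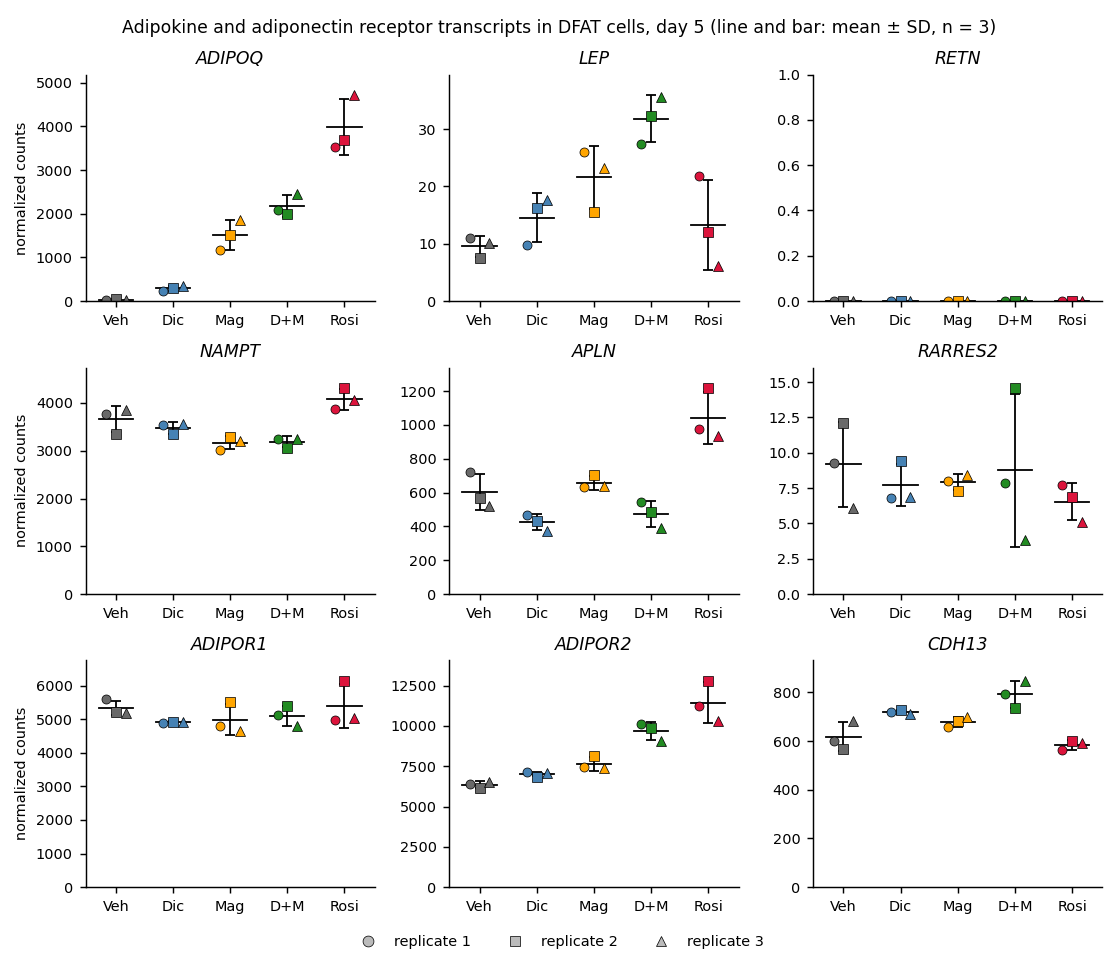
Normalized counts of the 9 members in the 15 libraries of DFAT (linear axes from 0), drawn as for 3T3-L1 with single libraries as points and mean ± SD as lines and bars (n = 3). The 5 ADIPOQ groups do not overlap, LEP is highest with the combination, APLN with rosiglitazone, and RETN is 0 in every library.

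The design allows the combination to be set beside its parts. For ADIPOQ in DFAT the dicoumarol by magnolol interaction, which is the departure of the combination from the product of the single fold changes, was −2.85 ± 0.31 on the log2 scale (adjusted p = 0.000897), the lowest value of all 14819 genes, where 0.081% of genes were called. The product of the single fold changes would give 15637 normalized counts, and the geometric mean of the combination was 2175. On the linear scale the combination mean of 2184 is set beside the vehicle level plus the sum of the single rises, 1786, with a difference of 397 ± 247 (SE, n = 3 per group), given without a test. In 3T3-L1 the Adipoq interaction was −1.17 ± 0.75 (SE) and did not pass the test (adjusted p = 0.99997). With the replicate block it was −1.17 ± 0.22 (SE), and it did not pass there either (adjusted p = 0.765). On the linear scale the combination mean of 3737 differed from the vehicle level plus the sum of the rises, 3708, by 29.2 ± 1157 (SE). This SE does not use the pairing of the 3T3-L1 libraries. No other member passed the interaction test in either system. In 3T3-L1 0% of genes did, with 78 at an unadjusted p under 0.05 (0 members), and limma-voom called 0.

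**Figure D3:**
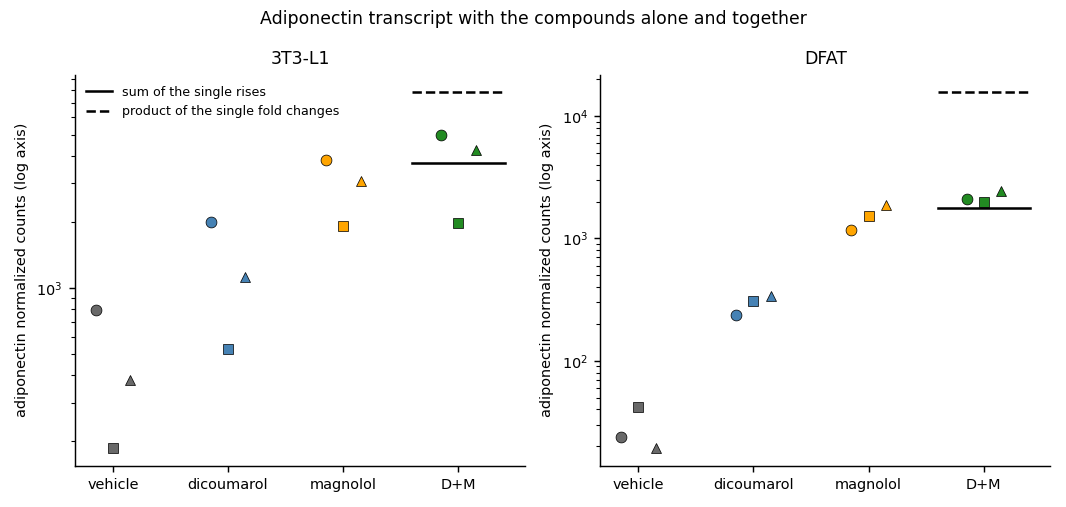
Adiponectin normalized counts (log axis) in single libraries with vehicle, dicoumarol, magnolol and both (D+M), for 3T3-L1 (left) and DFAT (right), with point shapes for replicates 1, 2 and 3. The solid line marks the vehicle mean plus the sum of the single rises and the dashed line the product of the single fold changes. In DFAT the combination libraries lie near the solid line and far below the dashed one.

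The fat cell markers moved with adiponectin. In 3T3-L1 0, 7, 10 and 10 of the 10 markers were called higher with dicoumarol, magnolol, the combination and rosiglitazone, and in DFAT 5, 8, 9 and 10, and none was called lower. Of all genes, in either direction, these treatments called 0%, 1.23%, 5.22% and 40.1% in 3T3-L1. In DFAT they called 1.94%, 4.22%, 10.2% and 10.8%. Among the 10 markers, Slc2a4 had a vehicle mean of 7.50 normalized counts in 3T3-L1 and 3.08 in DFAT, and passed the filter through its treated groups. In 3T3-L1 the mean log2 level of the markers differed from vehicle by 1.09, 2.08, 2.44 and 3.86 in the same order, and Adipoq less the markers by 0.37, 0.80, 0.74 and 1.20. In DFAT the markers differed by 0.71, 1.55, 2.16 and 2.41, and ADIPOQ less the markers by 2.67, 4.20, 4.12 and 4.74. Adiponectin thus changed by more than the marker mean in both systems. It did not exceed every marker in 3T3-L1, where the lipid droplet protein gene Cidec had log2 fold changes of 2.21, 3.98, 4.58 and 6.77, and the fatty acid carrier gene Fabp4 had 5.68 with rosiglitazone. These differences are descriptions, with no test, and the part of the markers' change in the result was not tested.

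**Figure D4:**
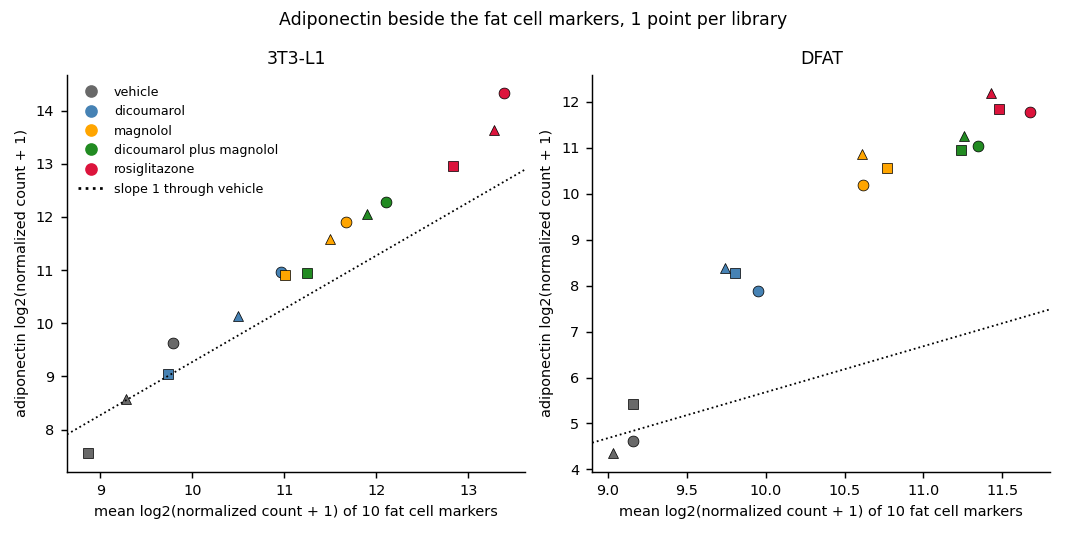
Adiponectin level against the mean level of the 10 fat cell markers, both as log2(normalized count + 1), 1 point per library, coloured by treatment, for 3T3-L1 (left) and DFAT (right). The dotted line has slope 1 through the vehicle mean. The treated DFAT libraries lie far above that line, and the 3T3-L1 libraries closer to it.

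Retn in 3T3-L1 (ENSMUSG00000012705, chr8:3705770-3710110, plus strand) took the same order of groups as adiponectin. Vehicle libraries had 112, 24.0 and 34.9 normalized counts, dicoumarol libraries 247, 71.4 and 97.5 and magnolol libraries 378, 174 and 252. Combination libraries had 524, 239 and 431 and rosiglitazone libraries 1318, 683 and 1011. Magnolol, the combination and rosiglitazone did not overlap with vehicle, and the Pearson r of Retn with Adipoq over the 15 libraries was 0.990, a description of libraries that both genes share. Resistin rose 5.49-fold with magnolol (log2 fold change 2.46 ± 0.51 (SE), adjusted p = 0.0282), 8.13-fold with the combination (log2 fold change 3.02 ± 0.51 (SE), adjusted p = 0.00256) and 20.8-fold with rosiglitazone (log2 fold change 4.38 ± 0.51 (SE), adjusted p = 9.40e-06). The dicoumarol value was 1.38 ± 0.51 (SE), adjusted p = 0.9998, or 0.00486 with the replicate block. The magnolol call was lost without any 1 of vehicle replicates 2 and 3 and magnolol replicates 1 and 3 (adjusted p 0.103 to 0.168), with limma-voom (0.0718), with no variance trend (0.0905) and with only the compared groups in the model (0.0598). With the replicate block rosiglitazone exceeded the combination (adjusted p = 0.000262 against 0.0764 without it).

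RETN in DFAT (ENSSSCG00000013575, chr2:71484169-71485616, minus strand) was listed at 0 in all 15 libraries. It was among the 9113 of 34307 pig genes listed at 0 in every library. The limit that a count of 0 allows was 2.54 to 3.84 normalized counts per library, so expression below that level was not detectable. This limit covers counting error only. RETN overlaps PCP2 on the opposite strand, which had a mean of 4.56 normalized counts. Since the strand setting of the counting is not given, reads of these genes may not be separated and the RETN values are uncertain.

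Adipoq and Retn, whose transcripts moved together in 3T3-L1, are shown with Lep by the 250 bases before their RefSeq transcription starts, to let a reader look for shared elements at the promoters. The sequences come from RefSeq on GRCm38.p6, 5′ to 3′ on the strand of the gene, in lower case except for a motif in capitals. The Adipoq window is chr16:23146286-23146535, plus strand, the Retn window chr8:3655520-3655769, plus strand and the Lep window chr6:29059971-29060220, plus strand.
Adipoq: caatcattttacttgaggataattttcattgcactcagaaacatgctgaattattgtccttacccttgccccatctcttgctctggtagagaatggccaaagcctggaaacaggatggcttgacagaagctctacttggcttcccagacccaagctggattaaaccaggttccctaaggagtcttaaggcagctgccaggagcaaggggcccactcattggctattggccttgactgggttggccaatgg
Retn: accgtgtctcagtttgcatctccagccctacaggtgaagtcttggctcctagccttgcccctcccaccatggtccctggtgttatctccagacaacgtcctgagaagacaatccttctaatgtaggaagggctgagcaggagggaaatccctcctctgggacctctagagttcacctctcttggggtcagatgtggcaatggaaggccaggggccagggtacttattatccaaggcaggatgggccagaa
Lep: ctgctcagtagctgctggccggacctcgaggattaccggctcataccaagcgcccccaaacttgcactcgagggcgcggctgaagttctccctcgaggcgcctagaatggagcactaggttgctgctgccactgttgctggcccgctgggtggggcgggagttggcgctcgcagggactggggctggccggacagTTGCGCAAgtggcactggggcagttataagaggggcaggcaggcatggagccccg
Both strands of these windows were searched for the DR1 element (2 copies of AGGTCA with 1 base between them, bound by PPARG with RXR), its half-site AGGTCA alone, TTGCNNAA (a C/EBP core) and CACGTG (an E-box), and DR1 holds the half-site within it. The capitals in Lep mark TTGCGCAA, a match to TTGCNNAA at positions -55 to -48 from the start. That motif was found in 9.56% of 32851 windows of the same length, AGGTCA in 14.0%, CACGTG in 6.02% and DR1 in 0.0335%. Neither the Adipoq nor the Retn window held any of the 4 motifs. Only exact matches within these 250 bases were searched, so sites that differ from a motif or lie elsewhere would not be found. Of the 7 members with a window, Nampt had AGGTCA at positions -151 to -146 and the rest, apart from Lep, had no match.

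Lep in 3T3-L1 (ENSMUSG00000059201, chr6:29060219-29073876, plus strand) was close to the limit of detection. Vehicle libraries had 2.67, 0 and 0 normalized counts, dicoumarol libraries 2.65, 0 and 0.975, magnolol libraries 1.94, 0 and 0 and combination libraries 1.01, 0 and 4.97. With rosiglitazone the libraries had 9.44, 4.35 and 13.6, and 2 of the 3 lay above every other library. The mean over the 15 libraries was under 10, so leptin was not tested there, and no fold is given against groups at the limit of detection. In a fit with no filter on low values, rosiglitazone against vehicle passed the test (adjusted p = 0.0134).

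LEP in DFAT (ENSSSCG00000040464, chr18:20106868-20123323, minus strand) was low as well, and passed the filter only through its treated groups. Its levels were 11.0, 7.47 and 10.2 normalized counts with vehicle and 9.75, 16.3 and 17.7 with dicoumarol. Magnolol gave 26.1, 15.5 and 23.1, the combination 27.5, 32.3 and 35.7 and rosiglitazone 21.8, 12.0 and 6.11. The combination libraries all exceeded those of the other 4 groups. Because the filter selected LEP through the groups where it is high, its comparisons are given from the fit with no filter on low values. There the combination against vehicle was 1.64 ± 0.39 (SE) on the log2 scale (adjusted p = 0.0297), and rosiglitazone against the combination was −1.35 ± 0.39 (SE), which did not pass the test (adjusted p = 0.0533). Leptin and adiponectin therefore took different orders over the groups in DFAT, leptin with its highest mean in the combination and adiponectin in rosiglitazone.

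Rarres2 in 3T3-L1 (ENSMUSG00000009281, chr6:48546630-48549723, minus strand) overlaps Lrrc61 on the opposite strand, which had a mean of 284 normalized counts, and since the strand setting of the counting is not given, reads of these genes may not be separated and the Rarres2 values are uncertain. Chemerin transcript stood at 53.5, 34.2 and 84.4 normalized counts with vehicle, 75.2, 48.9 and 176 with dicoumarol and 117, 75.2 and 202 with magnolol. It stood at 153, 104 and 253 with the combination and 266, 173 and 442 with rosiglitazone. Replicate 3 was the highest and replicate 2 the lowest in each group. Rarres2 rose 5.01-fold with rosiglitazone (log2 fold change 2.32 ± 0.48 (SE), adjusted p = 0.00131), and the 2 groups did not overlap. The combination did not overlap with vehicle either, but its log2 fold change of 1.55 did not pass the test (adjusted p = 0.0816), except with only the compared groups in the model (0.0300). With the replicate block the adjusted p was 0.0305 for dicoumarol, 5.07e-05 for magnolol and 1.10e-06 for the combination. The change with rosiglitazone was smaller than the mean change of the fat cell markers by 1.53 on the log2 scale, a description with no test. RARRES2 in DFAT (ENSSSCG00000035419, chr18:55903699-55906945, minus strand) ranged over 3.82 to 14.6 normalized counts across all libraries, and its group means of 6.54 to 9.18 lay under the filter.

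Apln in 3T3-L1 (ENSMUSG00000037010, chrX:47114023-47123730, minus strand) had 282, 274 and 389 normalized counts with vehicle and 235, 324 and 405 with rosiglitazone. Dicoumarol libraries stood at 283, 320.0 and 508, magnolol libraries at 359, 346 and 553 and combination libraries at 372, 386 and 615. All groups overlapped with vehicle, and replicate 3 was the highest in each. No comparison of apelin passed the test without the block. With the replicate block it was called higher with magnolol (log2 fold change 0.39, adjusted p = 0.0396) and the combination (0.52, adjusted p = 0.00340), and rosiglitazone was lower than the combination (−0.50, adjusted p = 0.00190) and than magnolol (−0.38, adjusted p = 0.00728).

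APLN in DFAT (ENSSSCG00000048443, chrX:106236749-106246377, minus strand) was highest with rosiglitazone. Vehicle libraries had 724, 569.7 and 521 normalized counts, dicoumarol libraries 469.9, 429.9 and 375 and magnolol libraries 632, 703 and 637. Combination libraries had 541, 483 and 389.8 and rosiglitazone libraries 974, 1217 and 936. The rosiglitazone libraries exceeded all others, and the dicoumarol libraries lay below every vehicle library. Apelin rose 1.73-fold with rosiglitazone (log2 fold change 0.79 ± 0.14 (SE), adjusted p = 0.000802). It was also higher with rosiglitazone than with dicoumarol (1.29, adjusted p = 4.28e-06), magnolol (0.66, adjusted p = 0.00345) and the combination (1.15, adjusted p = 1.71e-05). Dicoumarol against vehicle was −0.50 (95% interval −0.79 to −0.21) and did not pass the test over all genes (adjusted p = 0.0825), which it did with quantile normalization (0.0447) and with only the compared groups in the model (0.0457). Magnolol exceeded dicoumarol (log2 fold change 0.63 ± 0.14 (SE), adjusted p = 0.0236), with the call lost without any 1 of dicoumarol replicates 2 and 3 and the 3 magnolol libraries (0.0667 to 0.139), with no filter (0.0938), with no variance trend (0.0870) and with limma-voom (0.117). Combination against magnolol was −0.49, adjusted p = 0.177, and 0.0196 with the replicate block. Limma-voom, in which the median of all genes moved by −0.172 in this comparison, called the combination lower than vehicle (0.0233 against 0.116).

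Nampt in 3T3-L1 (ENSMUSG00000020572, chr12:32869544-32903348, plus strand) showed small differences on a high level. The vehicle libraries stood at 8045, 9332 and 7813 normalized counts and the combination libraries at 11568, 10879 and 11856, with no overlap. Dicoumarol, magnolol and rosiglitazone libraries ranged over 7256 to 10907. The combination raised Nampt 1.37-fold (log2 fold change 0.45 ± 0.11 (SE), adjusted p = 0.0237), and rosiglitazone gave less than the combination (log2 fold change −0.39 ± 0.11 (SE), adjusted p = 0.0214). The first call was lost without any 1 of vehicle replicates 1 and 3 and combination replicates 1 and 3 (adjusted p 0.0802 to 0.106), and the second without combination replicate 1 or 3 or rosiglitazone replicate 1 (0.0601 to 0.108) and with only the compared groups in the model (0.0763). NAMPT in DFAT (ENSSSCG00000015435, chr9:106119899-106294586, minus strand) had 3774, 3345 and 3862 with vehicle, 3013, 3291 and 3211 with magnolol, 3255, 3051 and 3245 with the combination and 3875, 4309.9 and 4051 with rosiglitazone. Here magnolol and the combination lay below every vehicle library, with log2 fold changes of −0.20 (adjusted p = 0.0935) and −0.20 (adjusted p = 0.0621) that did not pass the test. Limma-voom, in which the median of all genes moved by −0.145 and −0.172 in these comparisons, called both lower (adjusted p = 0.00501 and 0.00164), and quantile normalization called the combination lower (0.0449). Rosiglitazone gave more NAMPT than magnolol (log2 fold change 0.36 ± 0.065 (SE), adjusted p = 0.000906) and than the combination (log2 fold change 0.36 ± 0.065 (SE), adjusted p = 0.000900).

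Of the 2 adiponectin receptors, Adipor1 passed no test in either system and Adipor2 rose in both. Adipor1 in 3T3-L1 (ENSMUSG00000026457, chr1:134343116-134361089, plus strand) ranged over 2613 to 3184 normalized counts in the 15 libraries, and ADIPOR1 in DFAT (ENSSSCG00000010931, chr10:24907491-24915686, minus strand) over 4649.8 to 6139.9. Its largest difference from vehicle was −0.067 with rosiglitazone in 3T3-L1 (95% interval −0.23 to 0.095) and −0.12 with dicoumarol in DFAT (95% interval −0.29 to 0.049). Neither difference passed the test.

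Adipor2 in 3T3-L1 (ENSMUSG00000030168, chr6:119330111-119394665, minus strand) had 3549, 3932 and 3143 normalized counts with vehicle and 4276, 4130.0 and 4244 with dicoumarol. Magnolol libraries stood at 4716, 4828 and 4849, combination libraries at 5848, 5149.8 and 5201 and rosiglitazone libraries at 8318, 9154 and 8048. The 5 groups did not overlap. Adipor2 rose 1.36-fold with magnolol (log2 fold change 0.44 ± 0.088 (SE), adjusted p = 0.0226), 1.53-fold with the combination (log2 fold change 0.61 ± 0.088 (SE), adjusted p = 0.00104) and 2.41-fold with rosiglitazone (log2 fold change 1.27 ± 0.088 (SE), adjusted p = 1.30e-07). Dicoumarol gave 0.26 (95% interval 0.070 to 0.45), adjusted p = 0.9998. The magnolol call was lost without any 1 of vehicle replicates 1 and 3 and the 3 magnolol libraries (adjusted p 0.0647 to 0.1001), with no variance trend (0.0608) and with only the compared groups in the model (0.0918). Combination against dicoumarol was 0.35, adjusted p = 0.155, and 0.0179 with the replicate block.

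ADIPOR2 in DFAT (ENSSSCG00000000757, chr5:68755811-68807235, plus strand) stood at 6403, 6126 and 6551 normalized counts with vehicle, 7139.9, 6863 and 7056 with dicoumarol and 7429, 8126 and 7366 with magnolol. The combination gave 10126, 9898 and 9057 and rosiglitazone 11269, 12788 and 10307. As in 3T3-L1, the 5 groups did not overlap and came in the order vehicle, dicoumarol, magnolol, combination, rosiglitazone. The receptor rose 1.52-fold with the combination (log2 fold change 0.61 ± 0.072 (SE), adjusted p = 1.77e-05) and 1.79-fold with rosiglitazone (log2 fold change 0.84 ± 0.072 (SE), adjusted p = 2.70e-07). The combination exceeded magnolol (log2 fold change 0.34 ± 0.072 (SE), adjusted p = 0.0319), a call lost without magnolol replicate 1 or 3 or combination replicate 1 or 2 (adjusted p 0.126 to 0.186), with no filter (0.0947), with no variance trend (0.116), with only the compared groups in the model (0.0884) and with limma-voom (0.227). The rise with magnolol (log2 fold change 0.26 ± 0.072 (SE), adjusted p = 0.0456) was lost without any 1 of its 6 libraries (0.0726 to 0.170), with no filter (0.0972), with TMM scaling (0.0576), with no variance trend (0.0988) and with limma-voom (0.348). On the linear scale the combination mean of 9694 stood above the vehicle level plus the sum of the single rises, 8300.3, by 1394 ± 433 (SE), given without a test, and the interaction on the log2 scale was 0.20 ± 0.10, adjusted p = 0.99998.

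Cdh13 in 3T3-L1 (ENSMUSG00000031841, chr8:119010472-120051660, plus strand) fell where the other called members rose. Vehicle libraries had 5582, 7815 and 7349.9 normalized counts, dicoumarol libraries 5073, 7764 and 7164 and magnolol libraries 4507, 6418 and 6186. Combination libraries had 4199, 5674 and 5738 and rosiglitazone libraries 2934, 4505 and 4322, all below the vehicle libraries only in the last case. Replicate 1 was the lowest of each group. T-cadherin fell to 0.563 of its vehicle level with rosiglitazone (log2 fold change −0.83 ± 0.20 (SE), adjusted p = 0.00385). With the replicate block it also fell with magnolol (log2 fold change −0.28, adjusted p = 0.0116) and the combination (−0.41, adjusted p = 0.000259), which did not pass without it (adjusted p = 0.739 and 0.318). Preadipocyte markers moved the same way in 3T3-L1: their summed level was 141083 to 163049 normalized counts with vehicle and 80875 to 101816 with rosiglitazone, 5 of 6 were called lower there and none higher, none was at 0, and their part in the Cdh13 result was not tested. Col1a1 made up most of that sum, with means of 96035 with vehicle and 66229 with rosiglitazone. Rosiglitazone called 40.1% of all genes in 3T3-L1, in either direction.

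CDH13 in DFAT (ENSSSCG00000002684, chr6:4808255-5832415, minus strand) had 599, 569 and 684 normalized counts with vehicle, 719, 729.7 and 709.8 with dicoumarol and 658, 681 and 699.7 with magnolol. The combination gave 793, 736 and 846 and rosiglitazone 563, 600.0 and 591. The combination libraries exceeded those of the other 4 groups. CDH13 rose 1.28-fold with the combination (log2 fold change 0.36 ± 0.079 (SE), adjusted p = 0.00611), a call lost with limma-voom (adjusted p = 0.0587). Rosiglitazone against vehicle was −0.075 (95% interval −0.24 to 0.091), adjusted p = 0.668, and rosiglitazone was lower than the combination (log2 fold change −0.44 ± 0.079 (SE), adjusted p = 0.000880). Of 6 muscle markers, the 3 tested in DFAT (DES, MYH11 and CNN1) were called higher with the combination, which called 10.2% of all genes. The other 3 were near the limit of detection, with means over the 15 libraries of 0.289 (MYOD1), 1.11 (MYOG) and 2.89 (MYH3). None of the 6 was at 0 in all libraries. The summed level was 1233 to 1527 with vehicle and 3815 to 4939 with the combination, mostly from MYH11 and CNN1. DES, MYH11 and CNN1 were all called lower with rosiglitazone than with the combination, where 17% of all genes were called. In the preadipocyte list, of which 4 of 6 were tested in DFAT, the combination called COL1A1 higher (0.85) and PDGFRA lower (−0.86), no matched gene was at 0 in all libraries, THY1 matched no row, and the summed level was 1061060.0 to 1187140.0 with vehicle, 1808300.0 to 2096830.0 with the combination and 843820.0 to 963943 with rosiglitazone. COL1A1 made up most of this sum, with means of 1039190.0, 1870060.0 and 837947 in these groups. The PDGFRA means were 60676, 33300.5 and 28305, the PDGFRB means 39124, 46098 and 32615, and the CD34 means 10.4, 21.6 and 11.2. The part of either list in the CDH13 and ADIPOQ results was not tested.

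Set against each other, the treatments separated the members as follows. In 3T3-L1 rosiglitazone against the combination called 3 members (18.3% of all genes): Adipoq and Adipor2 higher and Nampt lower. In DFAT it called 6 of 7 (17%): ADIPOQ, NAMPT, APLN and ADIPOR2 higher, and LEP and CDH13 lower. Without LEP, whose call there was lost with no filter, it called 5. Rosiglitazone against dicoumarol called 5 members in 3T3-L1 (32.1%) and 5 in DFAT (13.1%). Rosiglitazone against magnolol called 4 in 3T3-L1 (35%) and 4 in DFAT (13.1%). In 3T3-L1 no member was called between magnolol and dicoumarol (0% of genes), the combination and dicoumarol (0.0254%) or the combination and magnolol (0%). At an unadjusted p under 0.05 there were 1, 4 and 0 members and 693, 1273 and 336 genes, limma-voom called no member, and with the replicate block 2, 5 and 0 members were called, beside 79 and 569 genes in the first and second of these comparisons. In DFAT magnolol against dicoumarol called 2 members (1.57%), ADIPOQ and APLN, the combination against dicoumarol 2 (2.35%), ADIPOQ and ADIPOR2, and the combination against magnolol 1 (0.621%), ADIPOR2. With the replicate block rosiglitazone against magnolol also called Nampt (adjusted p = 0.0362) and Rarres2 (6.74e-06) in 3T3-L1 and CDH13 (0.0359) in DFAT, and rosiglitazone against the combination also called Rarres2 (0.000470) and Cdh13 (0.000128) in 3T3-L1. Between dicoumarol and the other groups in 3T3-L1 the block called Adipoq and Retn for magnolol (0.000520 and 0.0394), and Adipoq, Retn, Rarres2, Adipor2 and Cdh13 for the combination (1.60e-05, 0.000360, 0.00142, 0.0179 and 0.00414). Some of these calls rested on single libraries. ADIPOR2 of rosiglitazone against the combination in DFAT (log2 fold change 0.24 ± 0.072 (SE), adjusted p = 0.0301) was lost without combination replicate 2 or 3 or rosiglitazone replicate 2 (0.0533 to 0.129), with no filter (0.0619), with no variance trend (0.0598) and with only the compared groups (0.141). Against dicoumarol in DFAT, NAMPT (0.23, adjusted p = 0.0253) was lost without any 1 of dicoumarol replicates 1 and 2 and rosiglitazone replicates 2 and 3 (0.0602 to 0.124), and CDH13 (−0.30, adjusted p = 0.0160) without any 1 of dicoumarol replicates 1 and 2 and rosiglitazone replicate 1 (0.0510 to 0.0640) and with limma-voom (0.0605). In 3T3-L1, Rarres2 against dicoumarol (1.64, adjusted p = 0.0168) was lost without any 1 of dicoumarol replicates 1 and 2 and rosiglitazone replicate 3 (0.0514 to 0.0874), and Cdh13 against dicoumarol (−0.77, adjusted p = 0.00847) without rosiglitazone replicate 1 (0.0511). Cdh13 against magnolol (−0.55, adjusted p = 0.0444) was lost without any 1 of magnolol replicates 2 and 3 and rosiglitazone replicate 1 (0.137 to 0.221), with no filter (0.0594), with no variance trend (0.0770) and with only the compared groups (0.0520). Several of these comparisons share libraries, so their values are not independent of each other.

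The 2 systems were compared by the difference of their log2 fold changes, DFAT minus 3T3-L1, over the 6 members tested in both and 9371 symbols in all. Species, cell origin and medium differ together between the systems and cannot be told apart. With dicoumarol no member was called (0.149% of symbols), although Adipoq, Apln and Nampt had an unadjusted p under 0.05, and limma-voom called 0 members, while magnolol gave 2 (3.23%), the combination 3 (11.7%) and rosiglitazone 4 (38.8%). Adiponectin rose more in DFAT with magnolol (2.87 ± 0.57 (SE), adjusted p = 0.00612), the combination (3.11 ± 0.57 (SE), adjusted p = 0.00101) and rosiglitazone (2.08 ± 0.57 (SE), adjusted p = 0.00638). With dicoumarol its difference was 1.92 ± 0.57 (SE), adjusted p = 0.414, and 1.28e-05 with the replicate block in both systems. In DFAT the replicate numbers did not pair the libraries of any comparison against vehicle. All block values for differences between systems therefore rest on a pairing found only in 3T3-L1. The difference for Nampt, whose log2 fold changes here lay above 0 in 3T3-L1 and below 0 in DFAT, passed with magnolol (−0.51 ± 0.13 (SE), adjusted p = 0.0236) and the combination (−0.65 ± 0.13 (SE), adjusted p = 0.00110). For Cdh13 it passed with the combination, with values below 0 in 3T3-L1 and above 0 in DFAT (0.77 ± 0.22 (SE), adjusted p = 0.0229), and with rosiglitazone, where both values lay below 0 (0.75 ± 0.22 (SE), adjusted p = 0.00881). With no variance trend the Nampt magnolol (adjusted p = 0.0526), Cdh13 combination (0.0519) and Apln rosiglitazone (0.0682) differences were lost. Rosiglitazone raised Adipor2 less in DFAT (−0.42 ± 0.11 (SE), adjusted p = 0.00374) and Apln, which it did not move past the test in 3T3-L1, more (0.78 ± 0.30 (SE), adjusted p = 0.0401). With the combination the Apln difference was −0.87 ± 0.30 (SE), adjusted p = 0.0564, and it passed with the replicate block (3.99e-05), TMM scaling (0.0490), only the compared groups (0.0235) and limma-voom (0.0153). In limma-voom the median of all DFAT genes moved by −0.172 with the combination. The Cdh13 difference with magnolol was 0.42 ± 0.22 (SE), adjusted p = 0.395, and 0.00210 with the block. For Adipor2 with the combination the systems differed by −0.0050 ± 0.11 (SE), adjusted p = 0.987.

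Other genes of the pathway were grouped in lists by role, with values given as log2 fold changes ± SE. Of 5 enzymes and chaperones of adiponectin assembly and secretion, all tested, rosiglitazone called 1 lower in 3T3-L1 (Plod1, a lysyl hydroxylase, −0.32 ± 0.087, adjusted p = 0.00874) and 1 higher in DFAT (ERO1A, an oxidase of the endoplasmic reticulum that helps release adiponectin, 0.48 ± 0.064, adjusted p = 4.83e-05). In 3T3-L1 Ero1a was at −0.47 ± 0.20 with rosiglitazone, which did not pass the test (adjusted p = 0.0792). Over all genes, rosiglitazone called 40.1% in 3T3-L1 and 10.8% in DFAT. The median log2 fold change of the list with rosiglitazone was −0.18 in 3T3-L1 and 0.068 in DFAT. Of 13 genes downstream of the receptors (the AMPK subunits, their upstream kinases, the adaptors Appl1 and Appl2, Sirt1, Ppara and Ppargc1a), rosiglitazone called 3 higher and 2 lower in 3T3-L1 and 2 higher in DFAT. Their median with rosiglitazone was −0.13 and 0.026. Prkag2, an AMPK subunit, was at 1.16 ± 0.15, adjusted p = 2.04e-05 in 3T3-L1, and Appl2 at −0.85 ± 0.11, adjusted p = 3.39e-05. PPARGC1A, a coactivator of mitochondrial genes, had DFAT means of 3.33 normalized counts with vehicle, 7.42 with dicoumarol and 10.6 with magnolol. Its means were 20.4 with the combination and 64.9 with rosiglitazone. It passed the filter only through its treated groups, so no fold is given, and the 2 genes called higher in DFAT include it. Camkk2, a kinase that activates AMPK, changed in opposite directions with rosiglitazone (−0.67 in 3T3-L1 and 0.33 in DFAT, adjusted p of the difference = 3.03e-07).

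Of 6 receptors for the other adipokines, 2 were tested in each system. The leptin receptor Lepr had a mean of 7.68 normalized counts in 3T3-L1 and 0.991 in DFAT. The apelin receptor Aplnr had 3.87 in 3T3-L1, and all of these lay under the filter. The chemerin receptor Cmklr1 was tested in 3T3-L1 only (mean 12.1), where rosiglitazone gave −1.34 ± 0.55, adjusted p = 0.0641. CMKLR2, which also binds chemerin, fell with rosiglitazone in DFAT (−0.44 ± 0.11, adjusted p = 0.0108). Cap1, described as a receptor of resistin, fell with rosiglitazone in 3T3-L1 (−0.50 ± 0.084, adjusted p = 0.000236). Of 9 C1q/TNF paralogues of adiponectin, rosiglitazone called 3 of 4 tested lower in 3T3-L1 and 3 of 6 tested lower in DFAT. It called 40.1% and 10.8% of all genes there, in either direction. In 3T3-L1 C1qtnf1 was at −1.58 ± 0.40 (adjusted p = 0.00506), while C1qtnf12 was at 0.77 ± 0.35 (adjusted p = 0.0908). In DFAT C1QTNF6 was at −1.29 ± 0.084 (adjusted p = 8.61e-09) and C1QTNF1 at −0.54 ± 0.089 (adjusted p = 0.000513). The combination called 1 paralogue lower in 3T3-L1 (5.22% of all genes called) and 4 higher in DFAT (10.2%). Of 7 enzymes of NAD synthesis beside Nampt, 5 were tested in each system. With rosiglitazone in 3T3-L1, Nmnat1 rose (0.52 ± 0.15, adjusted p = 0.00959) and Nmnat2 fell (−0.66 ± 0.13, adjusted p = 0.000792), and in DFAT NADSYN1 fell (−0.39 ± 0.11, adjusted p = 0.0279).

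Genes whose pattern over the 15 libraries of a system was most like that of a member were listed by Pearson r on log2(normalized count + 1), as a description, since all genes share the libraries. For Adipoq in 3T3-L1 they were G0s2 (0.995), Fabp5 (0.993) and Gm6166 (0.993), and for ADIPOQ in DFAT PLIN1 (0.988), CYRIA (0.974) and CD36 (0.973). G0S2 and PLIN1 are lipid droplet proteins. For Adipor2 they were Akap1 (0.992), Dlc1 (0.990) and Retsat (0.984) in 3T3-L1 and SIK2 (0.971), PDE3B (0.971) and PEX11A (0.970) in DFAT. For Cdh13 in 3T3-L1 they were Cd47 (0.979), Thbs2 (0.969) and Ncam1 (0.965), and for Rarres2 Acss2 (0.976), Klhl25 (0.976) and Dhcr7 (0.976). ACSS2 and DHCR7 are enzymes of acetyl-CoA and cholesterol synthesis. For APLN in DFAT they were TPI1 (0.976), EGLN3 (0.969) and PPP1R3B (0.962), of which TPI1 is a glycolytic enzyme and EGLN3 a prolyl hydroxylase of the hypoxia response. PPP1R3B, a glycogen-targeting phosphatase subunit, was also first for Apln in 3T3-L1, with r = 0.944. LEP in DFAT had lower values, with HECTD4 (0.905), MTSS2 (0.876) and ABHD15 (0.861).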

How the data were processed

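Messenger RNA was sequenced in 30 libraries with a kit that marks strand, per the labels' protocols. The submitters' processing notes name bcl2fastq 2.19.1.403, STAR, DESeq2 and GRCm38, with no role or order. The deposited values are counts divided by the authors' size factors, a normalized signal rather than raw counts. For the counting tool, annotation, strand setting and pig build, nothing is given in the sources used here. The mouse coordinates in the deposited table did not match a GRCm38 annotation, so their build is not settled.

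Samples were grouped by the treatment in their labels. Values were analysed as log2(value + 1) for genes whose mean over all 15 libraries reached 10, with limma 3.58.1 in R 4.3.3 (variance trend, all 5 groups in 1 model, two-sided tests). P-values were Benjamini-Hochberg adjusted over all genes of a table, at a threshold of 0.05. Fold changes on this scale understate the change of low genes. The fit was checked on simulated data, whose libraries were drawn independently with no effect of the replicate number. That check does not cover paired libraries such as those of 3T3-L1. The tables were normalized separately, so systems were compared only by their log2 fold changes, with summed squared SEs over 9371 symbols. The value of 1 read gave whole reads (tolerance 0.02, up to 20 reads) for 81.7% to 82.8% of low values in 3T3-L1 libraries and 89.7% to 91.0% in DFAT libraries, not nearly all, so the planned count test was not run. Instead limma-voom on estimated reads was used, an alternative chosen after seeing the data.

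Replicate numbers in the labels recur across groups. In 3T3-L1 all 30 same-numbered pairs had deviations from their group means that correlated above 0.1 (0.106 to 0.462, median 0.300, against a median of −0.142 for 60 other pairs), so the numbers pair these libraries, although the labels do not say what a number marks. In DFAT 16 of 30 pairs did. There they are taken as paired only for the combination against magnolol, rosiglitazone against magnolol and rosiglitazone against the combination.

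The members and lists were chosen with earlier results of these data known. All 9 members are named. From other lists the plan was to name the 2 tested genes with the largest change with rosiglitazone in each table. The text gives only some of these, and also names genes under the filter, genes whose change differed between systems and some others. For some members it lists the 3 genes with the highest Pearson r. Values of some listed genes are not reported here. Alternatives were other pseudocounts, filters, scalings and models, the replicate block and leaving out each library.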

Additional observations from a re-analysis of the deposited data

Results flagged for a closer look

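Each of the following is a log2 fold change against vehicle that differed between the cell systems by a test of the difference itself, given as DFAT minus 3T3-L1 with a limma-based adjusted p over 9371 symbols. Adipoq differed by 2.87 with magnolol (adjusted p = 0.00612), by 3.11 with the combination (adjusted p = 0.00101) and by 2.08 with rosiglitazone (adjusted p = 0.00638). Nampt differed by −0.51 with magnolol (adjusted p = 0.0236) and by −0.65 with the combination (adjusted p = 0.00110). Cdh13 differed by 0.77 with the combination (adjusted p = 0.0229) and by 0.75 with rosiglitazone (adjusted p = 0.00881). With rosiglitazone, Adipor2 differed by −0.42 (adjusted p = 0.00374) and Apln by 0.78 (adjusted p = 0.0401). Among all 9371 symbols the same test called 38.8% under rosiglitazone, 11.7% under the combination and 3.23% under magnolol, in either direction. The calls for Nampt (magnolol), Cdh13 (combination) and Apln (rosiglitazone) were lost in the fit with no variance trend.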

How the results depend on the processing

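No called log2 fold change of a member changed sign under any alternative run. Of 2974 member values under these alternatives, 77 changed sign, none of which passed the test in the reported fit or under the alternative. Pseudocounts of 0.5 and 5 and a minimum mean of 50, under which fewer members are tested, changed no call among the members tested. The shares of all genes called in the reported fit stand with the results above. The number of members called changed as follows, with the reported number in parentheses. It was 1 (2) for magnolol in DFAT with TMM scaling, no filter or no variance trend. Without the filter it was also 1 (2) for magnolol against dicoumarol, 0 (1) for the combination against magnolol and 3 (6) for rosiglitazone against the combination in DFAT. With no variance trend it was 0 (3) for magnolol in 3T3-L1, 1 (2) for magnolol against dicoumarol and 0 (1) for the combination against magnolol in DFAT, and 1 (2) for the difference between systems with magnolol. With only the compared groups it was 1 (3) for magnolol in 3T3-L1, 2 (1) for dicoumarol and 0 (1) for the combination against magnolol in DFAT, and with quantile normalization 2 (1) for dicoumarol in DFAT. Limma-voom gave 1 (2) for magnolol against dicoumarol, 1 (2) for the combination against dicoumarol and 0 (1) for the combination against magnolol in DFAT. It moved the median of all genes in DFAT by −0.145 with magnolol, −0.172 with the combination, −0.121 for the combination against dicoumarol, 0.155 for rosiglitazone against magnolol and 0.180 for rosiglitazone against the combination.

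With the replicate block, members called in 3T3-L1 were 3 (0) with dicoumarol, 6 (3) with magnolol, 7 (4) with the combination, 2 (0) for magnolol against dicoumarol, 5 (0) for the combination against dicoumarol, 7 (4) for rosiglitazone against magnolol and 7 (3) for rosiglitazone against the combination. In DFAT they were 2 (1) with dicoumarol and 2 (1) for the combination against magnolol, and 2 (0) in the difference between systems with dicoumarol. Of 189 member results 33 passed with the block and not in the reported fit, and none was lost. Of all genes in 3T3-L1, the reported fit called 35% for rosiglitazone against magnolol and 18.3% for rosiglitazone against the combination. The number of all genes called with the block for rosiglitazone against magnolol there is not reported here. In DFAT, where the numbers pair only some groups, the block called APLN with dicoumarol (adjusted p = 0.00861) and the combination (0.0249), and NAMPT with magnolol (0.0410) and the combination (0.0296). Genes called with the block in 3T3-L1 were 79 (0) with dicoumarol, 780 (193) with magnolol, 2124 (821) with the combination, 79 (0) for magnolol against dicoumarol, 569 (4) for the combination against dicoumarol and 5234 (2879) for rosiglitazone against the combination. In DFAT the block gave 670 (288) with dicoumarol, 1360 (626) with magnolol, 2643 (1508) with the combination, 656 (233) for magnolol against dicoumarol, 893 (348) for the combination against dicoumarol, 290 (92) for the combination against magnolol, 2924 (1943) for rosiglitazone against dicoumarol, 3031 (1934) for rosiglitazone against magnolol and 34 (12) for the interaction. For the difference between systems it gave 179 (14) for dicoumarol, 1007 (303) for magnolol and 2140 (1095) for the combination.

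Genes called also changed with other settings. With only the compared groups they were 106 (193) for magnolol, 0 (4) for the combination against dicoumarol and 1458 (2879) for rosiglitazone against the combination in 3T3-L1. In DFAT they were 931 (1604) for rosiglitazone, 450 (233) for magnolol against dicoumarol, 44 (92) for the combination against magnolol, 1172 (1934) for rosiglitazone against magnolol and 1336 (2523) for rosiglitazone against the combination. With no variance trend they were 80 (193) for magnolol and 0 (4) for the combination against dicoumarol in 3T3-L1, 57 (92) for the combination against magnolol and 5 (12) for the interaction in DFAT, and 4 (14) and 181 (303) for the difference between systems with dicoumarol and magnolol. Limma-voom gave 2652 (626) for magnolol, 4447 (1508) for the combination, 4226 (1934) for rosiglitazone against magnolol, 5169 (2523) for rosiglitazone against the combination and 5 (12) for the interaction in DFAT, and 718 (303) and 2024 (1095) for the difference between systems with magnolol and the combination. No filter gave 149 (233) for magnolol against dicoumarol and 7 (12) for the interaction in DFAT and 9 (14) for the difference between systems with dicoumarol. Quantile normalization gave 8 (4) for the combination against dicoumarol in 3T3-L1. The causes were not tested.

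With 1 library left out, genes called in 3T3-L1 ranged over 0 to 1 with dicoumarol, 22 to 135 with magnolol, 286 to 726 with the combination, 0 to 46 for the combination against dicoumarol, 3368 to 6011 for rosiglitazone against magnolol and 1077 to 4019 for rosiglitazone against the combination. In DFAT they ranged over 153 to 237 with dicoumarol, 400 to 577 with magnolol, 115 to 150 for magnolol against dicoumarol, 175 to 268 for the combination against dicoumarol, 44 to 68 for the combination against magnolol and 5 to 13 for the interaction. Members called ranged over 0 to 2 with magnolol and 1 to 3 for rosiglitazone against the combination in 3T3-L1. In DFAT they ranged over 1 to 2 with magnolol, 1 to 2 for magnolol against dicoumarol, 0 to 1 for the combination against magnolol and 3 to 5 for rosiglitazone against dicoumarol. RETN in DFAT and, outside rosiglitazone, Lep in 3T3-L1 lie at or near what 3 reads allow.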

Other observations

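Of 18 other secreted proteins of fat tissue, 11 were tested in 3T3-L1 and 13 in DFAT with limma. In 3T3-L1 magnolol called 1 higher, the combination 2 higher, and rosiglitazone 5 higher and 5 lower, where these treatments called 1.23%, 5.22% and 40.1% of all genes. In DFAT the combination called 7 higher and 1 lower, and rosiglitazone 5 higher and 1 lower, where they called 10.2% and 10.8% of all genes. Angptl4, an inhibitor of lipoprotein lipase and a PPAR target, rose in 3T3-L1 with magnolol (log2 fold change 0.98, adjusted p = 0.00833), the combination (1.47, adjusted p = 0.000116) and rosiglitazone (2.78, adjusted p = 2.43e-08), and in DFAT with the combination (0.54, adjusted p = 0.0254) and rosiglitazone (1.91, adjusted p = 7.12e-08). Retnla, a relative of resistin, had 3T3-L1 means of 3.61 normalized counts with vehicle, 8.92 with dicoumarol and 13.3 with magnolol. Its means were 22.3 with the combination and 102 with rosiglitazone. It passed the filter only through its treated groups, so no fold is given, and the 5 genes called higher with rosiglitazone there include it. RBP4, a carrier of retinol, rose in DFAT with the combination (1.79, adjusted p = 0.000752) and rosiglitazone (1.74, adjusted p = 0.000832).

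Some of these genes changed with rosiglitazone in ways that differed between the systems. Lcn2, a carrier of iron-binding siderophores, fell in 3T3-L1 (log2 fold change −1.33) and rose in DFAT (0.60), and the difference passed the test (adjusted p = 4.96e-09). Cfd, which encodes the fat cell protease adipsin, rose in 3T3-L1 (2.50, adjusted p = 0.00369) and was at −0.59 in DFAT (adjusted p = 0.591), with an adjusted p of 0.00250 for the difference.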
